A study of Mus musculus with 6 samples.

Results

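The genes described here are 48 mouse genes of mitosis and the spindle, chosen by name and by function and found as 1 row each among the 54532 rows of the deposited gene count table. They encode the mitotic cyclins and kinases, the spindle checkpoint, the kinetochore, the mitotic kinesins, the activators of the anaphase-promoting complex, the proteins of cytokinesis, condensin and the transcription factors FOXM1 and B-MYB. Bulk RNA-seq counted their transcripts in 6 libraries, which the labels call NIT-1, a beta-cell line from a mouse insulinoma. The 3 EV_Tm libraries came from cells kept for 16 h with vesicles (hucMSC-EVs) from mesenchymal stem cells of human umbilical cord, and the 3 PBS_Tm libraries from cells kept with PBS instead. All 6 were then exposed for 8 h to Tm, read as tunicamycin, which blocks N-linked glycosylation and stresses the endoplasmic reticulum (ER). The labels' genotype field calls the groups EVs treated and Ctrl, and names no allele. Although a treatment label of PBS_Tm reads as untreated, these samples were put in the stressed arm by their titles and the design text, and libraries without Tm were not analysed here.

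Each library held 28654248 to 32550268 counts. The labelled cell type was not borne out by its defining genes, since 7 of 10 beta-cell markers never passed 3 counts in any library, 6 of them, with Ins2, Iapp and Pdx1, were at 0 in all 6, and none averaged 1 CPM. Of 6 mesenchymal markers, Vim made up nearly all of the summed level, which was 680 to 731 CPM in EV_Tm and 624 to 642 CPM in PBS_Tm (CPM, the count scaled to a library total of 1000000). Vim and Col3a1 were higher in EV_Tm, while Col1a1 (1.70-fold) and Pdgfrb (2.91-fold) were lower. The markers of immune cells summed to 4.46 to 6.41 CPM in EV_Tm and 2.82 to 4.72 CPM in PBS_Tm. Of 5 acinar and duct markers, Cpa1, Prss2 and Krt19 were at 0 in all 6 libraries, and Cela1 and Sox9 alone gave the sum of 111 to 114 CPM in EV_Tm and 85.6 to 93.9 CPM in PBS_Tm. Endothelial markers summed to 29.0 to 30.6 CPM in EV_Tm and 31.6 to 33.6 CPM in PBS_Tm. The beta-cell markers reached only 0.248 to 0.552 CPM in EV_Tm and 0.0994 to 0.251 CPM in PBS_Tm, and those of other islet cells 0.739 to 1.17 CPM in EV_Tm and 0.563 to 0.912 CPM in PBS_Tm. Hspa5, the ER chaperone BiP and a marker of ER stress, had 27524 to 30572 counts in EV_Tm and 311068 to 317026 counts in PBS_Tm, so the arms differed in this marker along with every difference below. The part of these markers in the results below was not tested.

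Cells enter mitosis when cyclin-dependent kinase 1, bound to cyclins A and B, is switched on by CDC25 phosphatases. Chromosomes are then condensed, attached by their kinetochores to the spindle, and held together until the spindle checkpoint releases CDC20 and the anaphase-promoting complex destroys securin and cyclin B. Most of these genes are transcribed late in the cell cycle, through promoters that carry CCAAT boxes, bound by NF-Y, and a cell cycle homology region, bound by the DREAM and MuvB complexes. Beta cells divide rarely in the adult animal, while insulinoma lines are kept as dividing cultures. In a bulk sample, more cells in mitosis and more transcript per cell cannot be told apart.

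The promoters are shown first, with genes that moved in either direction, because these elements are the ones this class of genes is known for. Promoter windows of 250 bases before to 50 bases after the start (RefSeq, GRCm38.p6) were found for 39 of the 48 genes. The letters TTTGAA or TTCGAA, the core of the cell cycle homology region, stood on either strand in 30 of these 39 (76.9%), against 21.7% of 27025 genes with a window. CCAAT stood on either strand in 29 of 39 (74.4%), against 41.1% of all genes, and both kinds of motif in 26 of 39 (66.7%), against 8.61%. A CCAAT can share its last T with a TTTGAA, and a match is a description of the sequence only. Among the genes higher in EV_Tm in the test given below, 16 of 23 with a window held TTTGAA or TTCGAA, as did 2 of 2 lower genes and 12 of 14 that did not pass. The lower genes Cdc25c and Smc4 had no window. CCAAT stood in 14 of 23 higher genes, 2 of 2 lower genes and 13 of 14 that did not pass. Both kinds of motif stood in 13 of 23, 2 of 2 and 11 of 14. In the 5 stretches below, from 150 bases before to 30 bases after the start, capitals mark the homology region core and the CCAAT box, which is printed as ATTGG where it lies on the other strand. Cdk1, Mki67 and Ccnb1 were higher in EV_Tm, and Cdc20 and Ect2 were lower.
Cdk1 promoter, chr10:69352883-69353062, minus strand: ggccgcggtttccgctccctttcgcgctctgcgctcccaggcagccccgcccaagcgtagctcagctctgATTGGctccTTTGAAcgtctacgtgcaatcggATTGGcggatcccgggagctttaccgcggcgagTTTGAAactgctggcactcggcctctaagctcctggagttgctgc
Mki67 promoter, chr7:135716350-135716529, minus strand: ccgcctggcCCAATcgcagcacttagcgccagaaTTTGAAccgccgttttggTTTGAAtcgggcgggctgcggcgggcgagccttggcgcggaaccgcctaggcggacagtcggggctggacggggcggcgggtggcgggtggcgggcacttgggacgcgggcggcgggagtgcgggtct
Ccnb1 promoter, chr13:100786457-100786636, minus strand: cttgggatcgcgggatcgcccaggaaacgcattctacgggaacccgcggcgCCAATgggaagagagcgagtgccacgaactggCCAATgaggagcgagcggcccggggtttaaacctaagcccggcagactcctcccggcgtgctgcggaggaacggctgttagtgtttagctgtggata
Cdc20 promoter, chr4:118437314-118437493, minus strand: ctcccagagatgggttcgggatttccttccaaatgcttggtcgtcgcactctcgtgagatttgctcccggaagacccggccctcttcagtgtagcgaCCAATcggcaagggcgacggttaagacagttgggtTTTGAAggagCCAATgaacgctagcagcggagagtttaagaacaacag
Ect2 promoter, chr3:27153825-27154004, minus strand: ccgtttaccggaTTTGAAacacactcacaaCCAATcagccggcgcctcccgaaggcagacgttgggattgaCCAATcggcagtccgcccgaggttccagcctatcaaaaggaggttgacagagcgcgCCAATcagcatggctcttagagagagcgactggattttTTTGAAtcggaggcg
Ccnb1 held a pair of CCAAT boxes but neither spelling of the homology region in its window. Cdc20 and Ect2 held both motifs, as Cdk1 and Mki67 did.

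Between EV_Tm and PBS_Tm, 27 of the 48 mitosis and spindle genes were higher with vesicles, 4 were lower (Cdc25c, Cdc20, Ect2 and Smc4) and 17 did not pass (edgeR quasi-likelihood test, adjusted p under 0.05 over 16844 genes). Of all tested genes, 22.6% were higher and 24.7% lower, 47.4% in either direction. Among the 9826 tested genes that averaged at least 10 CPM, a range that holds all 48 and was looked at after the counts were known, 28.7% were higher and 35.4% lower, 64.1% in either direction. The counts by role given below, from sets of 2 to 7 genes, stand beside these same shares and were not tested as sets. The median log2 fold change of the 48 was 0.18, against 0.01 for all tested genes. The changes were small, from -0.59 to 0.58 on the log2 scale, and only Cdc25c reached a 1.5-fold difference in the fit, being 1.51-fold lower. The 3 EV_Tm values lay above all 3 PBS_Tm values in 28 of the 48 genes and below them in 6, against 26.6% and 27.9% of all tested genes. All 48 genes together took 0.439% ± 0.002 of the counts in EV_Tm and 0.381% ± 0.005 in PBS_Tm (SD, n = 3 each). Nothing in the labels tells whether libraries of a group stem from different cultures, and the p-values therefore cover only a spread between libraries that may be technical.

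**Figure D1:**
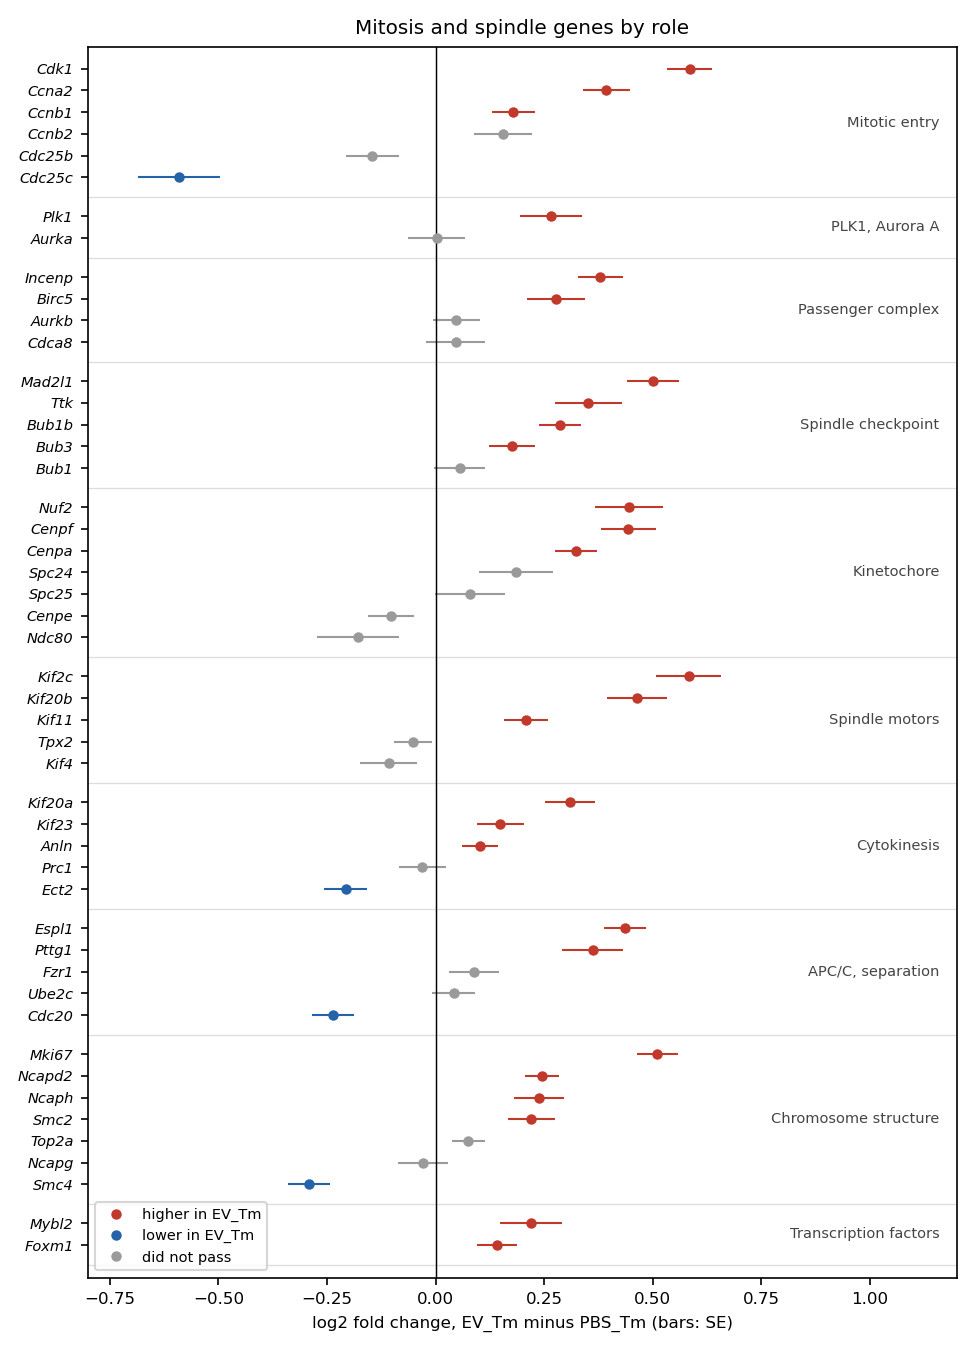
Log2 fold change of each of the 48 genes, EV_Tm minus PBS_Tm, with its SE as a bar, grouped by role from mitotic entry at the top to transcription factors at the bottom. Red points passed the test as higher in EV_Tm (27 genes), blue points as lower (4 genes), and grey points did not pass (17 genes); every role but the passenger complex, the checkpoint, PLK1 with Aurora A, and the transcription factors has points on both sides of 0.

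The genes ranged widely in level. Per kilobase of gene model, Top2a, a DNA topoisomerase that untangles sister chromatids, stood highest at 45.8 CPM per kb over the 6 libraries. It was followed by Cdc20 at 42.6 and the condensin gene Ncapd2 at 42.4 CPM per kb. The lowest were Ndc80 at 3.42, Cenpf at 3.65 and Nuf2 at 4.15 CPM per kb, all genes of the kinetochore. The coefficient of variation between the libraries of a group had a median over the 48 genes of 3.49% in EV_Tm and 5.53% in PBS_Tm.

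Of the 6 genes that drive entry into mitosis, Cdk1, Ccna2 and Ccnb1 were higher, Cdc25c was lower, and Ccnb2 and Cdc25b did not pass. Cdk1 (chromosome 10, 69335146 to 69352938, GRCm38 here and below), the kinase that starts mitosis, had 105, 101 and 107 CPM in EV_Tm, against 71.4, 72.2 and 65.3 CPM in PBS_Tm. All 3 EV_Tm values were above the PBS_Tm values, and the log2 fold change was 0.58 ± 0.05 (SE, edgeR adjusted p = 1.00e-09). Ccna2, cyclin A2, which pairs with CDK1 and CDK2, was higher (log2 fold change 0.39 ± 0.05, SE), at 83.6 ± 3.6 CPM in EV_Tm and 63.7 ± 2.9 CPM in PBS_Tm (SD, n = 3 each). Ccnb1, the main mitotic cyclin, was also higher (log2 fold change 0.18 ± 0.05, SE), at 77.9, 77.2 and 77.8 CPM in EV_Tm and 69.5, 67.2 and 69.0 CPM in PBS_Tm. The values of its relative Ccnb2 were 44.0, 43.7 and 46.3 CPM in EV_Tm and 40.6, 43.2 and 36.6 CPM in PBS_Tm. These groups were close but apart, and Ccnb2 missed the threshold (log2 fold change 0.16 ± 0.07, SE, edgeR adjusted p = 0.062), though without PBS_Tm replicate 2 it passed (adjusted p = 0.0336).

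Of the CDC25 phosphatase genes, Cdc25c was lower, Cdc25b did not pass, and Cdc25a, which is not among the 48, was higher (log2 fold change 0.58 ± 0.06, SE, edgeR adjusted p = 4.05e-08), at 49.3 ± 1.2 CPM in EV_Tm and 32.9 ± 1.5 CPM in PBS_Tm (SD, n = 3 each). Cdc25c, which removes the inhibitory phosphates from CDK1, had 15.0, 12.5 and 13.8 CPM in EV_Tm, against 19.2, 20.8 and 22.2 CPM in PBS_Tm. It was the lowest gene of the 48 by CPM, and its groups did not overlap (log2 fold change -0.59 ± 0.09, SE, edgeR adjusted p = 1.22e-05). Cdc25b, a related phosphatase, stood at 43.1 ± 0.4 CPM in EV_Tm and 47.7 ± 2.4 CPM in PBS_Tm (SD, n = 3 each). Its difference missed the threshold (log2 fold change -0.15 ± 0.06, SE, edgeR adjusted p = 0.0528) and passed without PBS_Tm replicate 3 (adjusted p = 0.0236). Plk1, the Polo-like kinase that activates CDC25C and builds the spindle poles, had 49.1, 51.8 and 50.4 CPM in EV_Tm and 47.7, 38.8 and 39.4 CPM in PBS_Tm. PBS_Tm replicate 1 was close to the EV_Tm values and the other two lay well below them (log2 fold change 0.26 ± 0.07, SE, edgeR adjusted p = 0.00325). Aurka, the Aurora A kinase of the centrosome, had the same mean in both groups, 45.8 ± 2.5 CPM in EV_Tm and 45.7 ± 2.8 CPM in PBS_Tm (SD, n = 3 each, log2 fold change 0.00 ± 0.07, SE, edgeR adjusted p = 0.979).

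**Figure D2:**
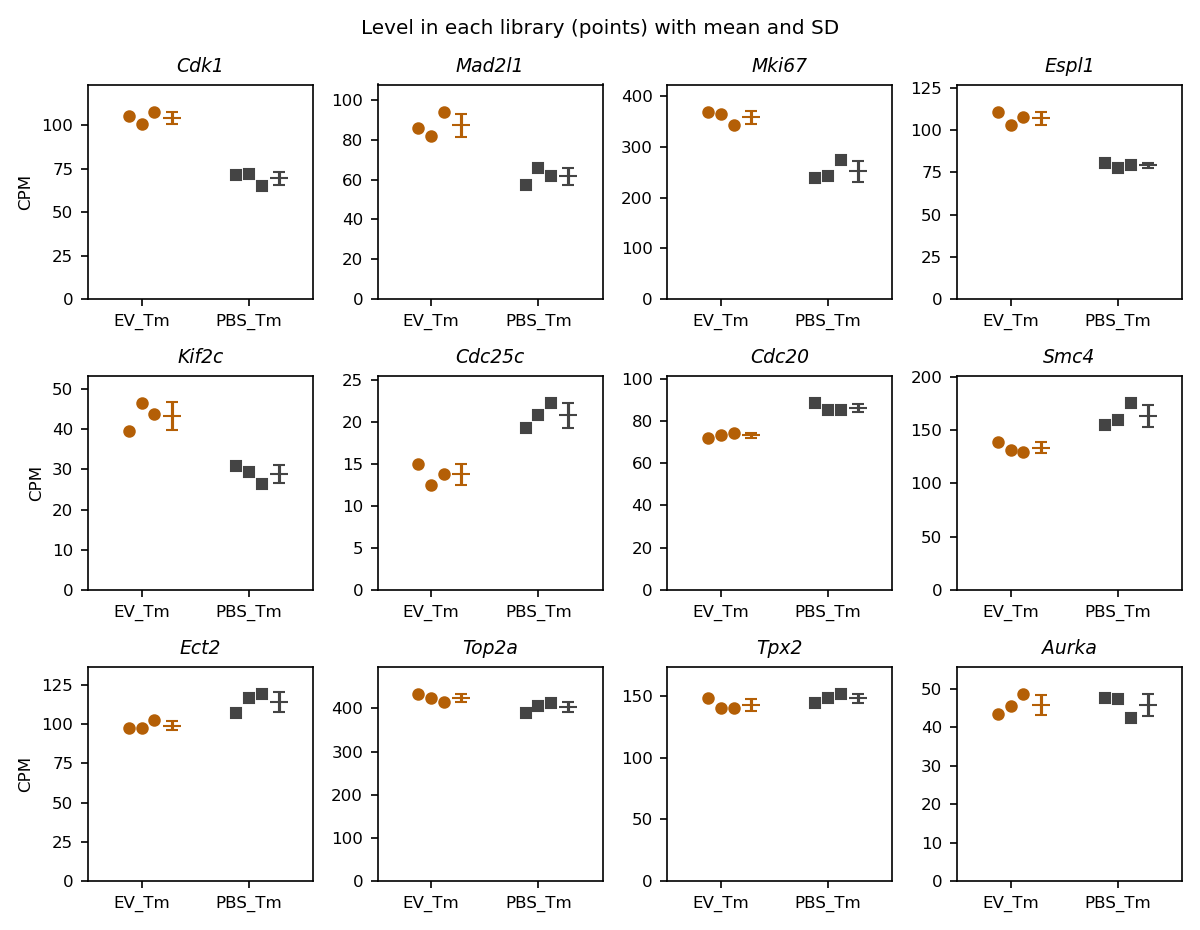
Level in CPM of 12 genes in each library, EV_Tm as circles on the left and PBS_Tm as squares on the right of each panel, with the mean and SD beside the points; every axis starts at 0. Cdk1, Mad2l1, Mki67, Espl1 and Kif2c lie higher in EV_Tm, Cdc25c, Cdc20, Smc4 and Ect2 lower, and Top2a, Tpx2 and Aurka did not pass the test.

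The chromosomal passenger complex, which corrects faulty attachments and later directs cleavage, had 2 genes called higher and 2 that did not pass. Incenp, its scaffold, had 93.2, 93.0 and 94.7 CPM in EV_Tm and 68.6, 77.3 and 70.1 CPM in PBS_Tm. The EV_Tm libraries were nearly level with each other and all above PBS_Tm (log2 fold change 0.38 ± 0.05, SE, edgeR adjusted p = 1.46e-06). Birc5, survivin, which docks the complex at the centromere, was higher too (log2 fold change 0.28 ± 0.07, SE). The kinase gene Aurkb (0.05 ± 0.05 on the log2 scale, edgeR adjusted p = 0.507) and the borealin gene Cdca8 (0.05 ± 0.07, edgeR adjusted p = 0.614) did not pass.

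Of the 5 spindle checkpoint genes, 4 were higher and Bub1 did not pass. Mad2l1 (chromosome 6, 66535390 to 66547220), whose product MAD2 binds CDC20 at unattached kinetochores, had 85.9, 81.8 and 93.6 CPM in EV_Tm, against 57.3, 65.6 and 61.9 CPM in PBS_Tm. The groups were well apart (log2 fold change 0.50 ± 0.06, SE, edgeR adjusted p = 1.38e-07). Ttk, the checkpoint kinase MPS1, was also higher (log2 fold change 0.35 ± 0.08, SE). Bub1b, which encodes BUBR1 and had the highest level per length of the 5, was at 139, 139 and 126 CPM in EV_Tm and 108, 110.5 and 113 CPM in PBS_Tm. Its groups were apart as well (log2 fold change 0.29 ± 0.05, SE). Bub3, the partner of both BUB kinases, had a log2 fold change of 0.18 ± 0.05 (edgeR adjusted p = 0.00813), but did not pass once EV_Tm replicate 3 was left out (0.0894). Bub1, the kinase that recruits the others to the kinetochore, did not pass (0.06 ± 0.06 on the log2 scale, edgeR adjusted p = 0.47).

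Among the 7 kinetochore genes, Nuf2, Cenpf and Cenpa were higher and the other 4 did not pass. Nuf2, a rod protein that grips microtubules, had 30.2, 29.4 and 31.4 CPM in EV_Tm and 20.9, 21.9 and 24.0 CPM in PBS_Tm. These groups were apart (log2 fold change 0.45 ± 0.08, SE, edgeR adjusted p = 3.68e-05), while its direct partner Ndc80 had 17.96, 23.3 and 21.3 CPM in EV_Tm and 24.1, 21.4 and 25.2 CPM in PBS_Tm. Those overlapped (log2 fold change -0.18 ± 0.09, SE, edgeR adjusted p = 0.125), and Ndc80 passed as lower only without EV_Tm replicate 2 (adjusted p = 0.0384). The remaining subunits of that complex, Spc24 and Spc25, had log2 fold changes of 0.19 ± 0.09 and 0.08 ± 0.08 (SE), and Spc24 passed without EV_Tm replicate 3 (adjusted p = 0.0442). Cenpa, the histone H3 variant that marks centromeres and the highest of the 7 per length, had 90.8, 89.5 and 93.3 CPM in EV_Tm and 72.4, 72.4 and 73.8 CPM in PBS_Tm. These were apart too (log2 fold change 0.32 ± 0.05, SE). Cenpf, a large outer kinetochore protein, was higher (0.44 ± 0.06 on the log2 scale), and Cenpe, the kinesin that moves chromosomes to the equator, did not pass (-0.10 ± 0.05, edgeR adjusted p = 0.124).

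Of the 5 genes of spindle motors and their partner TPX2, 3 were higher and Tpx2 and Kif4 did not pass. Kif2c, the microtubule-depolymerising kinesin MCAK, had 39.6, 46.4 and 43.8 CPM in EV_Tm and 30.9, 29.4 and 26.4 CPM in PBS_Tm. All EV_Tm values were above PBS_Tm, and the log2 fold change of 0.58 ± 0.08 was next to that of Cdk1 (SE, edgeR adjusted p = 5.42e-07). Kif20b, a kinesin of late mitosis, was higher (log2 fold change 0.46 ± 0.07, SE), as was Kif11, the EG5 motor that separates the spindle poles (0.21 ± 0.05). Tpx2, which activates Aurora A on the spindle and was the highest of this set per length, had 148, 140.1 and 140.1 CPM in EV_Tm and 144, 149 and 151 CPM in PBS_Tm. Its groups overlapped, and it did not pass (log2 fold change -0.05 ± 0.04, SE, edgeR adjusted p = 0.356), nor did Kif4, a chromosome-bound kinesin (-0.11 ± 0.07, adjusted p = 0.185).

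For cytokinesis, Kif20a, Kif23 and Anln were higher, Ect2 was lower and Prc1 did not pass. Kif20a, the kinesin MKLP2 that carries the passenger complex to the midzone, had 62.7, 63.0 and 62.7 CPM in EV_Tm and 54.1, 48.2 and 49.7 CPM in PBS_Tm (log2 fold change 0.31 ± 0.06, SE, edgeR adjusted p = 8.47e-05). The EV_Tm libraries were almost equal and above all of PBS_Tm. Ect2 (chromosome 3, 27097222 to 27153878), the exchange factor that turns on RhoA at the cleavage plane, had 97.4, 97.3 and 102 CPM in EV_Tm and 107, 117 and 119 CPM in PBS_Tm. Here EV_Tm lay below (log2 fold change -0.21 ± 0.05, SE, edgeR adjusted p = 0.00111). Kif23, the centralspindlin motor, had a log2 fold change of 0.15 ± 0.05 (edgeR adjusted p = 0.0252), and did not pass without EV_Tm replicate 3 (0.25) or PBS_Tm replicate 3 (0.0694). Anln, the anillin of the contractile ring, had one of 0.10 ± 0.04 (edgeR adjusted p = 0.0448), and left out one at a time, each of the 6 libraries took this call away (adjusted p = 0.0653 to 0.154). Prc1, which bundles midzone microtubules, did not pass (-0.03 ± 0.05 on the log2 scale, edgeR adjusted p = 0.671).

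Of the 5 genes of the anaphase step, Espl1 and Pttg1 were higher, Cdc20 was lower, and Fzr1 and Ube2c did not pass. Espl1 (chromosome 15, 102296266 to 102324357), the protease separase that cuts cohesin, had 110.4, 103 and 108 CPM in EV_Tm and 80.3, 77.6 and 79.3 CPM in PBS_Tm. The groups were far apart for their spread (log2 fold change 0.44 ± 0.05, SE, edgeR adjusted p = 4.02e-08), and Pttg1, the securin that holds separase inactive, was higher (0.36 ± 0.07). Cdc20 (chromosome 4, 118432901 to 118437352), which activates the anaphase-promoting complex and is the target of the checkpoint, had 71.9, 73.2 and 74.2 CPM in EV_Tm and 88.2, 85.0 and 85.3 CPM in PBS_Tm. EV_Tm lay below in every library (log2 fold change -0.24 ± 0.05, SE, edgeR adjusted p = 0.000258). Fzr1, the other activator of the complex (CDH1), did not pass (0.09 ± 0.06, edgeR adjusted p = 0.222) but did without PBS_Tm replicate 1 (adjusted p = 0.0196). Ube2c, the ubiquitin-conjugating enzyme that works with the complex, stood at 75.8 ± 0.8 CPM in EV_Tm and 73.7 ± 2.4 CPM in PBS_Tm (SD, n = 3 each, log2 fold change 0.04 ± 0.05, SE, edgeR adjusted p = 0.531).

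Of the 7 genes of chromosome structure, 4 were higher, Smc4 was lower, and Top2a and Ncapg did not pass. Mki67 (chromosome 7, 135689784 to 135716361), the proliferation antigen Ki-67 that coats mitotic chromosomes, had 368, 365 and 344 CPM in EV_Tm and 239, 242 and 275 CPM in PBS_Tm. The groups were apart, 1.42-fold in the fit (log2 fold change 0.51 ± 0.05, SE, edgeR adjusted p = 2.56e-09). Top2a had 432, 424 and 415 CPM in EV_Tm and 389.7, 404 and 413 CPM in PBS_Tm. The gap was smaller than the range within either group, and Top2a did not pass (log2 fold change 0.08 ± 0.04, SE, edgeR adjusted p = 0.105), though without PBS_Tm replicate 3 it did (adjusted p = 0.0485). In condensin, which compacts chromosomes, Ncapd2 (log2 fold change 0.24 ± 0.04, SE), Ncaph (0.24 ± 0.06) and Smc2 (0.22 ± 0.05) were higher and Ncapg did not pass (-0.03 ± 0.06, edgeR adjusted p = 0.707). Smc4, the partner ATPase of SMC2, was the exception, with 139, 131 and 129.6 CPM in EV_Tm and 155, 159.8 and 175 CPM in PBS_Tm. It was lower in all 3 EV_Tm libraries (log2 fold change -0.29 ± 0.05, SE, edgeR adjusted p = 2.07e-05).

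Both transcription factor genes passed by a small margin. Foxm1, a forkhead factor of late cell cycle genes, had 131, 142 and 141 CPM in EV_Tm and 131, 120.4 and 124 CPM in PBS_Tm. EV_Tm replicate 1 was barely above PBS_Tm replicate 1, and the log2 fold change was 0.14 ± 0.05 (SE, edgeR adjusted p = 0.0151). The call was lost without EV_Tm replicate 2 (adjusted p = 0.101), EV_Tm replicate 3 (0.0773) or PBS_Tm replicate 2 (0.113). Mybl2, the B-MYB factor that joins the MuvB complex, had 37.3, 41.9 and 40.5 CPM in EV_Tm and 37.4, 33.3 and 32.0 CPM in PBS_Tm. EV_Tm replicate 1 fell within the PBS_Tm range, and the call (log2 fold change 0.22 ± 0.07, SE, edgeR adjusted p = 0.0144) was lost without EV_Tm replicate 2 or 3 (adjusted p = 0.0927 and 0.0545) and without PBS_Tm replicate 2 or 3 (adjusted p = 0.0706 and 0.0736).

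Because members of one complex moved unequally, the ratio of partner genes per kilobase was taken in each library, where the scaling between libraries cancels out. These 14 pairs, and which gene of each is named first, were set up after the single-gene values had been seen. The direction of a ratio follows from that order. In 8 of 14 pairs the 3 EV_Tm ratios lay above all 3 PBS_Tm ratios, and in the other 6 the groups overlapped. Cdk1 stands in 3 of these 8 pairs. Over all 1128 pairs that the 48 genes can form, the groups were apart, in either direction, in 61.4%. This share was worked out afterwards, and the count of 8 of 14 is close to it. Smc2 to Smc4 stood at 0.701, 0.741 and 0.757 in EV_Tm and 0.489, 0.563 and 0.490 in PBS_Tm, so that the transcripts of the SMC pair were nearer to parity with vesicles. Nuf2 to Ndc80 stood at 1.72, 1.29 and 1.51 in EV_Tm and 0.888, 1.05 and 0.973 in PBS_Tm. The ratio of Mad2l1 to Cdc20, the checkpoint protein and its target, was 0.266, 0.249 and 0.281 in EV_Tm and 0.145, 0.172 and 0.162 in PBS_Tm, a 1.67-fold difference and the widest of the 14. Incenp to Aurkb differed 1.26-fold and Cdk1 to Ccnb1 1.32-fold. Overlap was seen for separase to securin (Espl1 to Pttg1, 0.583 ± 0.038 in EV_Tm and 0.555 ± 0.049 in PBS_Tm, SD, n = 3 each). It was also seen for Aurka to Tpx2, for Bub1b to Bub3 and for Birc5 to Cdca8 of the passenger complex. With 3 against 3 libraries the exact permutation test (two-sided) cannot go below p = 0.1, the value of all 8 pairs that were apart, and adjusted over the 14 pairs it was 0.175.

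**Figure D3:**
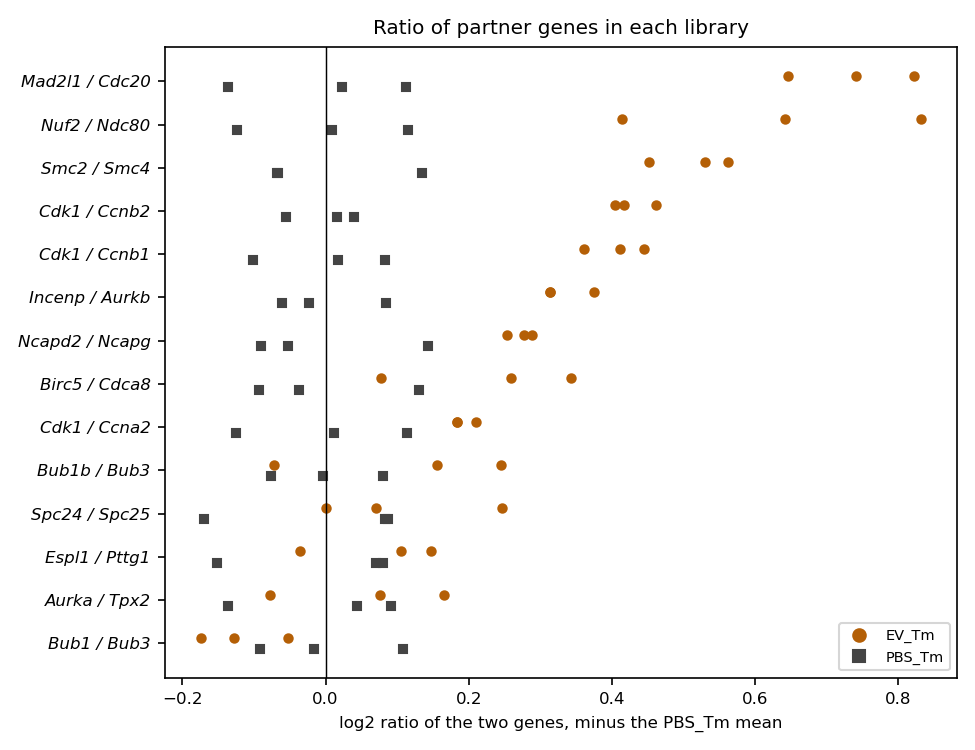
Log2 ratio of the levels per kilobase of 14 pairs of partner genes in each library, relative to the mean of the 3 PBS_Tm libraries of that pair; circles are EV_Tm libraries, squares are PBS_Tm libraries. In the 8 pairs from Mad2l1 to Cdc20 down to Cdk1 to Ccna2, apart from Birc5 to Cdca8, the EV_Tm circles all lie to the right of the squares.

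Several of these genes share bases with a neighbour on the opposite strand, and the strand setting of the counting is not given in the sources used here. Of the 48, 10 overlap an opposite-strand gene that held at least 10% as many counts, so reads of the pair may not have been told apart. Among the called genes these are Kif20a with Cdc23 (a neighbour with a log2 fold change of -0.23), Cdc20 with Elovl1 (-0.16), Ccna2 with Exosc9 (-0.36) and Bub3 with Fgfr2 (0.11). Ncapg, which was not called, overlaps Lcorl, which was lower (-0.65), and the others are Cdc25b, Cdca8, Kif4, Prc1 and Fzr1. Genes named here from outside the 48 were not checked for such overlaps.

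Other genes of cell division were listed by function. Of 96 such genes 36 were higher (37.5%, against 22.6% of all tested genes), 24 were lower (25%, against 24.7%) and 36 missed the threshold. Their median log2 fold change was 0.05. Among tested genes averaging at least 10 CPM, a level some of the 96 did not reach, 28.7% were higher and 35.4% lower. Among 12 regulators of entry and arrest, 7 were higher (58.3%) and 3 lower (25%). Cdkn2c, the CDK inhibitor p18, was at 34.6, 36.7 and 34.9 CPM in EV_Tm and 17.8, 17.96 and 16.0 CPM in PBS_Tm, and Fbxo5, the EMI1 inhibitor of the anaphase-promoting complex, was 1.63-fold higher. Gadd45a, a stress-induced gene that inhibits CDK1, had 7.97, 9.79 and 8.48 CPM in EV_Tm and 35.8, 38.4 and 31.6 CPM in PBS_Tm. It was the widest change of these lists, 4.03-fold lower. Of the kinases that inhibit CDK1, Wee1 was higher, at 51.4, 49.5 and 49.2 CPM in EV_Tm and 33.1, 35.9 and 32.4 CPM in PBS_Tm (log2 fold change 0.57 ± 0.06, SE, edgeR adjusted p = 6.42e-08). The other, Pkmyt1, was 1.18-fold lower with overlapping groups (edgeR adjusted p = 0.0387). Its call was lost without EV_Tm replicate 1 or 2 (adjusted p = 0.146 and 0.113), without PBS_Tm replicate 1 or 3 (0.236 and 0.0565), with plain library sizes (0.0881) and in DESeq2 (0.0507).

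Of 30 further checkpoint and kinetochore genes, 10 were higher (33.3%), 5 lower (16.7%) and 15 did not pass. Over all tested genes these shares were 22.6% and 24.7%. At an average of at least 10 CPM they were 28.7% and 35.4%. Cenpm was 1.55-fold and Mis18a, which helps load CENP-A, 1.51-fold higher, while Cenpk was 1.47-fold lower. Mis12, the kinetochore protein that anchors the NDC80 complex, had 34.7, 37.6 and 34.9 CPM in EV_Tm and 79.7, 81.2 and 79.9 CPM in PBS_Tm, 2.25-fold lower. Of 29 spindle and cytokinesis genes, 10 were higher (34.5%), 9 lower (31%) and 10 did not pass. Stmn1, the microtubule destabiliser stathmin, had 266, 265 and 266 CPM in EV_Tm and 161, 162 and 158 CPM in PBS_Tm, and the spindle kinesin Kif15 was 1.51-fold higher. Racgap1, the centralspindlin partner of KIF23 that binds ECT2, was 1.23-fold lower and the centrosome kinase gene Nek2 1.21-fold lower. In the list of anaphase-promoting complex, cohesin and condensin II, 9 of 25 were higher (36%) and 7 lower (28%). Anapc13 was 1.62-fold and Cdca5 (sororin, which protects cohesin) 1.41-fold higher, and the cohesin genes Stag1 1.26-fold and Stag2 1.21-fold lower.

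The genes of DNA replication, expressed earlier in the cycle, were set beside the mitotic ones. On a list of 40 replication genes, 28 were higher (70%, against 22.6% of all tested genes) and 3 lower (7.5%, against 24.7%). The other 9 missed the threshold. At an average of at least 10 CPM, a level some of the 40 did not reach, 28.7% of tested genes were higher and 35.4% lower. The median log2 fold change of the 40 was 0.33, against 0.18 for the 48 mitosis genes. Rrm2, a ribonucleotide reductase subunit, was 1.90-fold and Mcm5, of the replicative helicase, 1.73-fold higher, while Cdc6 and Cdc45 were 1.32-fold and 1.27-fold lower. The 40 took 0.371% ± 0.003 of the counts in EV_Tm and 0.278% ± 0.005 in PBS_Tm (SD, n = 3 each). Whether the lists differ from each other was not tested.

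**Figure D4:**
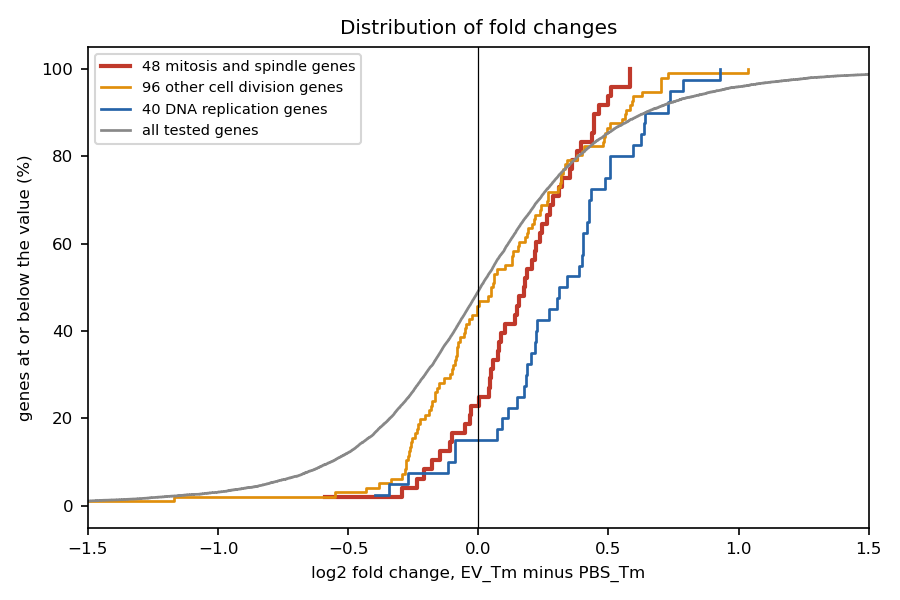
Cumulative share of genes, in percent, against the log2 fold change (EV_Tm minus PBS_Tm) for the 48 mitosis and spindle genes, 96 other cell division genes, 40 DNA replication genes and all 16844 tested genes, cut at -1.5 and 1.5. The curve of the 48 lies right of that of all genes at its middle (median 0.18 against 0.01) and is narrower, and the replication genes lie further right (median 0.33).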

How the data were processed

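Transcripts were measured by bulk RNA-seq in 6 libraries, 3 EV_Tm and 3 PBS_Tm, grouped by their titles. Alignment by the authors used HISAT2 2.2.1, per the labels' protocols, and featureCounts 2.0.6 stands in the submitters' processing notes. The deposited table gives unnormalized counts, 1 row per gene and 1 column per library. Start, end and gene length are other deposited values, in bases. Although mm39 is named in the processing notes, positions match GRCm38 in 98.3% of 54495 gene IDs shared with GENCODE M21 and in 45 of the 48 genes, and are read as GRCm38. How strand and multiply mapped reads were treated is not given in the sources used here.

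The libraries held 28654248 to 32550268 counts. Those of a group differed by more than sampling noise (mean chi-square per gene 3.59 to 7.22), so each was kept as a sample. Genes passing filterByExpr were scaled by TMM and tested in edgeR 4.0.16 with R 4.3.3 (two-sided quasi-likelihood test, Benjamini-Hochberg over 16844 genes, adjusted p under 0.05). CPM uses TMM-scaled library sizes. SEs derive from each gene's log2 fold change and F value. The fit was run on simulated data in which few genes changed, as many up as down. A change across as many genes as were called here was not simulated. Other settings were DESeq2 1.42.0 size factors, plain library size, no filter, a filter at 1 CPM in 3 libraries, the tests of DESeq2 and limma-voom (limma 3.58.1), a replicate block, omission of each library, and an adjusted p under 0.01. Promoters were searched for exact letters.

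The 48 genes and all lists were chosen with earlier results of these data known. By rule, every gene has its log2 fold change, and values in each library are given, per role, for the called gene with the largest change and the gene highest per kilobase, and for the genes lower in EV_Tm. Ccnb1, Cdk1, Ndc80, Cdkn2c, Gadd45a, Mis12, Stmn1, Wee1 and Cdkn1a have such values by choice after they were seen, and Cdc25a, Hspa5 and the markers Col1a1 and Pdgfrb were likewise named. From each other list, up to 2 called genes with the largest rise and 2 with the largest fall, averaging at least 10 CPM, are named.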

Additional observations from a re-analysis of the deposited data

How the results depend on the processing

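With the 27 genes higher and 4 lower in EV_Tm as the base, DESeq2's test, DESeq2's size factors and limma-voom each gave 27 and 4. Plain library size gave 30 and 4 (Ccnb2, Spc24 and Top2a added), the stricter filter 29 and 4 (Ccnb2 and Top2a added), no filter 26 and 4, and an adjusted p under 0.01 23 and 4. Leaving out each library in turn gave 23 to 27 higher and 4 to 5 lower. The calls of Cdc25c, Cdc20, Ect2 and Smc4 held in each of these settings. Over all genes 2893 to 4307 were higher and 3407 to 4266 lower, and 3277 to 3616 and 3785 to 4092 with a library left out. Plain library size gave a median over all genes of 0.05 on the log2 scale, against 0.01.

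Same-numbered libraries did not deviate together from their group means (r = -0.06, 0.01 and -0.03). With 3 libraries per group this shows no pairing by number but cannot exclude it. With the replicate block 26 of the 48 genes were higher and 4 lower, and 3679 and 4058 over all genes. Anln lost its call (adjusted p = 0.102), as it did with no filter (0.139).

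The sign changed only for genes that had not passed. Plain library size gave log2 fold changes of 0.00898 for Prc1 and 0.0107 for Ncapg, and no filter gave -0.00901 for Aurka. With a library left out, Aurka ran between -0.0531 and 0.0358, Cdca8 between -0.0319 and 0.0794, Bub1 between -0.00540 and 0.0793 and Prc1 between -0.0724 and 0.0280. The counts behind the 48 genes, 363 to 13451 per library, gave SEs of 0.04 to 0.09 on the log2 scale, which hold the spread between libraries as well as counting error, and differences within them could not be told from that spread.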

Other observations

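The list of spindle and cytokinesis genes held 3 tubulin genes, and the other tubulin genes were not looked at. Tuba1b stood at 405 CPM in EV_Tm and 285 CPM in PBS_Tm, Tuba1c at 287 CPM in EV_Tm and 194 CPM in PBS_Tm, and Tubb4b at 238 CPM in EV_Tm and 180 CPM in PBS_Tm (means of 3 libraries each, all called by edgeR). A list of 11 genes covered the DREAM and MuvB complexes, which repress and later activate late cell cycle promoters. Of these, 2 were higher (18.2%), 5 lower (45.5%) and 4 did not pass. Over all tested genes the shares were 22.6% and 24.7%, and at an average of at least 10 CPM, 28.7% and 35.4%. The difference from these shares was not tested. Rbbp4, a histone-binding subunit, was 1.24-fold and the pocket protein gene Rbl2 1.16-fold higher, while the MuvB core genes Lin52 and Lin54 were 1.41-fold and 1.37-fold lower. Cdkn1a, the p53 target p21, was called lower, with 298, 296 and 292 CPM in EV_Tm and 358, 350.4 and 332 CPM in PBS_Tm (log2 fold change -0.23 ± 0.04, SE, edgeR adjusted p = 2.85e-05). The tubulin genes and Cdkn1a were picked after their values were seen.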
